A study of Mus musculus with 16 samples.

Results

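The late cornified envelope (*Lce*) genes and the fused S100 genes were examined in the back skin of mice that lost *Sas-4* in the epidermis, together with the single-copy genes that lie among them. Members were the genes whose symbol begins with Lce, and *Flg*, *Flg2*, *Hrnr*, *Rptn*, *Tchh*, *Tchhl1*, *Crnn*, *Lor*, *Ivl*, *Kprp*, *Crct1*, *Lelp1* and *Smcp*. These rules found 34 of the 49452 genes listed, in both tables, of which 32 carried their symbol in the tables and 2 (*Flg* and *Smcp*) were named from their gene identifiers. They are 14 *Lce1* genes, 6 *Lce3* genes, *Lce6a*, 7 fused S100 genes and 6 single-copy genes. All 34 lie on chromosome 3 between positions 92080271 (*Lor*) and 93471980 (*Tchhl1*) of the mouse build mm10.

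RNA-Seq values were given for 16 libraries, 4 per group, at postnatal day P0 (unplated keratinocytes freed from the epidermis) and at embryonic day E13.5 (epidermal sheets). All mice were of an FVB and C57BL6 background and every group carries at least 1 floxed *Sas-4* allele. *Sas-4* (gene symbol *Cenpj*) encodes a protein needed to build centrioles, and K14-Cre recombines floxed alleles in the epidermis and its appendages from the keratin 14 promoter. The mutants are K14-Cre tg/wt with *Sas-4* fl/fl. At P0 the controls are *Sas-4* fl/wt, and controls 2 and 3 carry K14-Cre while controls 1 and 4 do not. At E13.5 the controls by title are *Sas-4* fl/wt without K14-Cre. Values are FPKM, fragments scaled to transcript length and library size, so that levels can be compared between genes. Library values are listed in the order of the replicate numbers, 1 to 4.

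At P0 *Cenpj* was at 4.35, 3.35, 3.22 and 4.29 FPKM in controls and at 1.52, 1.41, 1.35 and 1.09 FPKM in mutants, lower in all mutants. At E13.5 it was at 3.72, 3.85, 3.56 and 3.66 FPKM in the libraries titled control and at 9.17, 8.66, 9.02 and 8.74 FPKM in those titled mutant, the opposite of the titles. The column names give the other genotype for all 8 libraries of E13.5. Each direction at E13.5 is therefore given by title and turns round by column name. Depth relative to control 1 of the same stage, read from the lowest values, was 0.9202 to 1.014 in controls and 0.940 to 1.102 in mutants at P0. At E13.5 it was 0.933 to 1.02 in libraries titled control and 0.835 to 0.908 in those titled mutant. Control 1 itself came out at 0.986 by this reading at both stages, so these depths are approximate.

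The uppermost living cells of the epidermis, the granular keratinocytes, build a cornified envelope beneath the plasma membrane as they die. Transglutaminases link involucrin, loricrin, small proline-rich proteins and late cornified envelope proteins into it, and filaggrin bundles the keratin filaments inside. The genes for these proteins sit side by side in the epidermal differentiation complex. The fused S100 proteins begin with a calcium-binding S100 domain that is followed by long repeats. In human epidermis the *LCE3* genes are known to respond to barrier damage, and the *LCE1* genes to be part of normal cornification.

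Promoters of 5 members are shown because they carry the sequence features that set the *Lce* genes apart from the fused S100 genes. RefSeq promoters (GRCm38.p6, 250 bases before to 50 bases after the start) were matched for 31 of 34 members, all but *Kprp*, *Crct1* and *Lce1f*. *Lce3c* (chr3:92944236-92944535, plus strand) and *Lce3d* (chr3:92957140-92957439, plus strand) are neighbours from one subfamily, *Lce1i* (chr3:92778850-92779149, minus strand) belongs to the other, and *Rptn* (chr3:93393449-93393748, plus strand) and *Flg2* (chr3:93197023-93197322, plus strand) are fused S100 genes. Capitals mark ATAAAAG in the *Lce* promoters, and TGANTCA and, in *Rptn*, TATAAA in the fused S100 promoters.
Lce3c: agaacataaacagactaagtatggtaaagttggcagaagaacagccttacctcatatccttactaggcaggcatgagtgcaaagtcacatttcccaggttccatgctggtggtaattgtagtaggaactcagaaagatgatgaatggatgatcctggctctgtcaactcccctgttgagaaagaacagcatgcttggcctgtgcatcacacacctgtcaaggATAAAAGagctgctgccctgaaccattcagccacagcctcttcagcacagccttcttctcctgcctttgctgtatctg
Lce3d: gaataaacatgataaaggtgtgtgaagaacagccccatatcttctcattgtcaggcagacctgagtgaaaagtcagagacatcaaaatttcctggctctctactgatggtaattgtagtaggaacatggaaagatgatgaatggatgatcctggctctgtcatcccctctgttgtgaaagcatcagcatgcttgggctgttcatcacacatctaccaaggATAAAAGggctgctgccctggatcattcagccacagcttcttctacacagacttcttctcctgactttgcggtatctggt
Lce1i: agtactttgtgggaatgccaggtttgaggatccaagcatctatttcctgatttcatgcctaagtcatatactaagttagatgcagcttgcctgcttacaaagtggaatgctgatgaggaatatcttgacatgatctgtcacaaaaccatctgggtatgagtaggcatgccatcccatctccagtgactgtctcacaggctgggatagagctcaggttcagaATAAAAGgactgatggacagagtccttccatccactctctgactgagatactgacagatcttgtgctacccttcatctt
Rptn: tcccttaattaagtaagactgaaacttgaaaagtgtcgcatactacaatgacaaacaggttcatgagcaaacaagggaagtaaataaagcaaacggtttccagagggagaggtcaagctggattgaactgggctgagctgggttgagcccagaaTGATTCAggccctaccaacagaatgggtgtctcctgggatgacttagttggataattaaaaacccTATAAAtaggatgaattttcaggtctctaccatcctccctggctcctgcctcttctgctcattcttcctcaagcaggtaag
Flg2: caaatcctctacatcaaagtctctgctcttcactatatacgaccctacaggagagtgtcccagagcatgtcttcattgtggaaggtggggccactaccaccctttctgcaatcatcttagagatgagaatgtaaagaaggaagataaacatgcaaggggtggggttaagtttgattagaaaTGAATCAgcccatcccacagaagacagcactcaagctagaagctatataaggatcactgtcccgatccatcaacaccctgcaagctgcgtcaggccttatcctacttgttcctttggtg

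The letters TGANTCA, where N is any base, are a loose form of the element bound by AP-1 factors. They were found in 7 of 31 member promoters (22.6%), against 7.81% of all 32851 promoters in the table. The 7 are *Crnn*, *Flg2*, *Flg*, *Rptn* and *Tchhl1*, which are 5 of the 7 fused S100 genes, and *Lor* and *Ivl*. None of the 13 *Lce1* and none of the 6 *Lce3* promoters held them. In *Rptn* the match (TGATTCA) starts 96 bases before the start, in *Crnn* also 96, in *Flg2* (TGAATCA) 69, in *Lor* 48 and in *Ivl* 116. TATAAA was found in 10 of 31 member promoters (32.3%) and in 13.6% of all promoters. The variant ATAAAAG, searched for after the promoters had been read, was in 17 of 31 members (54.8%) against 5.42% of all promoters, and it can overlap TATAAA. On the strand of the gene and 26 to 32 bases before the start it was in 10 of 13 *Lce1*, 5 of 6 *Lce3* and 1 of 7 fused S100 promoters (*Crnn*), against 0.658% of all promoters. *Lce1* and *Lce3* promoters therefore share this feature, and its bearing on their levels was not tested. Both strands were searched for each motif. CACCC, the core bound by KLF factors, was in 51.6% of member promoters and 57.5% of all promoters, and TTGCNNAA, known for C/EBP factors, in 12.9% and 10.8%. AACNNGTT, known for grainyhead-like factors, was in 3.23% and 4.20%, and CATG, the core of p53-family half-sites, in 83.9% and 61.1%. These matches are letters and say nothing of binding.

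Over their 300 aligned bases *Lce1* promoters were 42.9 to 86.0% identical (median 60.8% over 78 pairs) and *Lce3* promoters 51.6 to 83.1% (median 55.3% over 15 pairs). Between the subfamilies the median was 45.4%. The *Lce3c* and *Lce3d* promoters shown above were 76.3% identical. The transcripts also share stretches. Of all 50-base windows of its longest transcript, an *Lce3* gene shared 12.1 to 49.3% with another member, and 13 of 14 *Lce1* genes shared up to 25.4%. No window of the fused S100 or single-copy transcripts was shared with another member. Values of single *Lce* genes are thus uncertain where reads could belong to several of them, and the summed value of a subfamily is less so. Repeats inside a gene were not searched, and the *Flg* transcript used here had 1488 bases. How reads from the repeats of the fused S100 genes were counted is not given.

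At P0 *Rptn* and *Lce3c* rose in mutants, *Tchh* fell, and the *Lce1* genes, *Lor* and *Flg* did not pass the test. Of 34 members 23 reached 1 FPKM in 4 or more of 8 libraries and were tested with limma on log2(FPKM + 1). Of these 2 were called higher and 1 lower at an adjusted p under 0.05, and 20 were not called. Of all 13033 genes tested 42.3% were called, 11.7% higher and 30.7% lower, a larger share than among the tested members. Median-of-ratios scaling changed the split of all genes from 1520 higher and 3995 lower to 2459 and 2520, and moved their median log2 fold change from -0.15 to -0.0034. The median of the tested members was 0.67, and 20 of the 23 had a positive fold change. Of the 23, 8 reached 1 FPKM in all 4 controls, and 5 others did so in all 4 mutants only, so the mutants alone let these 5 into the test. The rest passed the filter only with libraries of both groups counted together, so their entry also leaned on mutant values. Neither this median nor the count of positive fold changes is therefore support for a direction. The 11 members below the filter are described by their values.

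**Figure D1:**
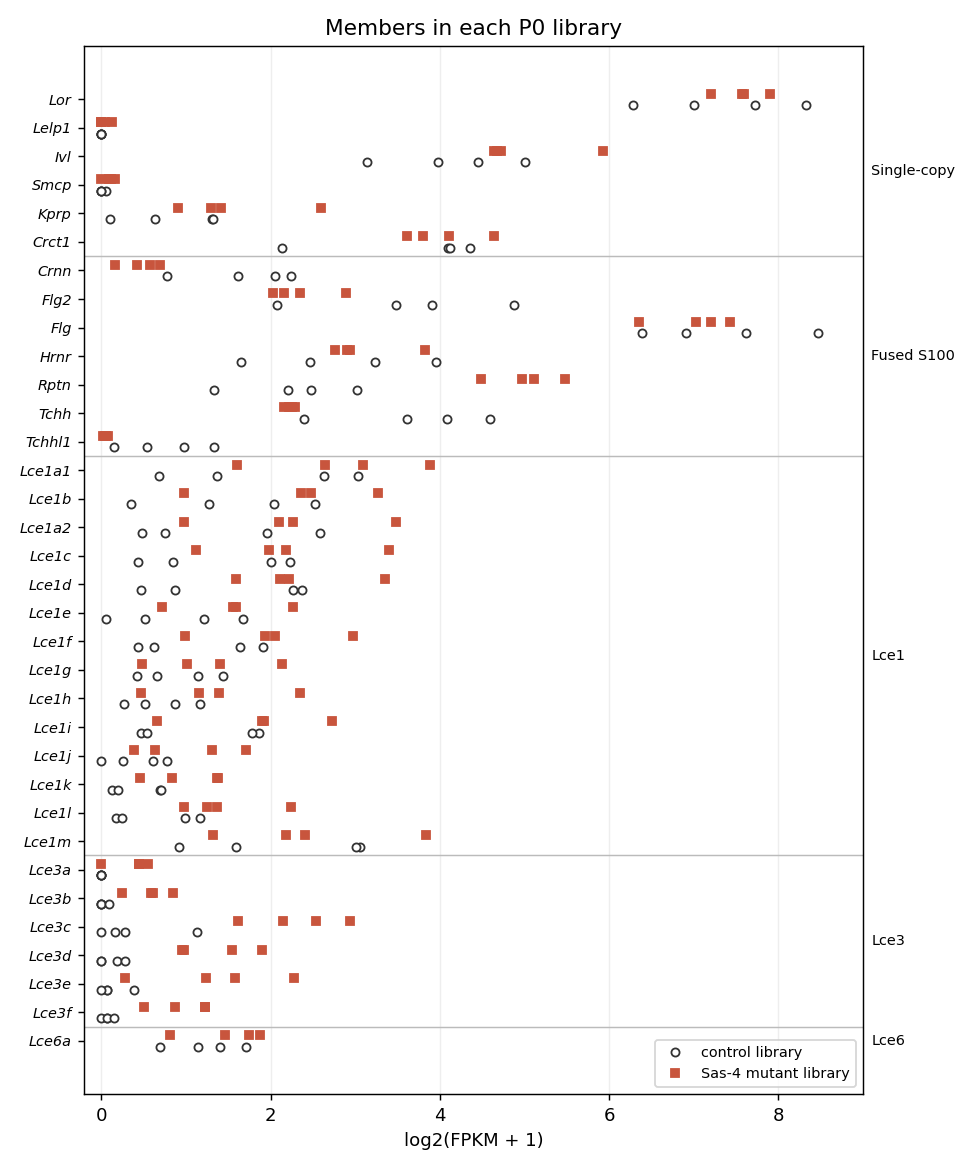
FPKM of the 34 members in each P0 library on the log2(FPKM + 1) axis, grouped by family, with open circles for the 4 controls and red squares for the 4 mutants. The mutants lie above all controls for *Rptn* and 4 *Lce3* genes and below all controls for *Tchh*, *Crnn* and *Tchhl1*, while the groups overlap for the other 26 members. Of all tested genes 11.7% had mutants above all controls and 31.8% below. Among genes below the filter with any value above 0 these shares were 3.09% and 11.1%.

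The *Lce3* genes encode the late cornified envelope proteins that are scarce in resting skin. *Lce3c* was at 0, 0.218, 1.19 and 0.119 FPKM in controls and at 2.07, 6.69, 4.80 and 3.43 FPKM in mutants. Every mutant was above every control, and control 3 was the highest control. The group means were 0.381 ± 0.546 and 4.25 ± 1.98 FPKM (SD, n = 4 each), 11.1-fold apart. On the log2 scale the rise was 1.92 with a standard error of 0.32 (limma, adjusted p = 0.00123). *Lce3c* entered the test through its mutants, since only 1 control reached 1 FPKM. This call was kept under all 17 alternatives that tested the gene.

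The other 5 *Lce3* genes fell below the filter. *Lce3d* was at 0, 0.135, 0.211 and 0 FPKM in controls and at 0.962, 2.72, 0.938 and 1.92 FPKM in mutants. *Lce3f* was at 0.0490, 0, 0.0509 and 0.106 FPKM in controls and at 0.422, 1.33, 0.8294 and 1.34 FPKM in mutants. For both genes the groups did not overlap. *Lce3e* was at 0.0494, 0.0493, 0.308 and 0 FPKM in controls and at 0.213, 3.86, 1.99 and 1.35 FPKM in mutants, and here mutant 1 lay under control 3. *Lce3b* reached at most 0.0601 FPKM in controls and lay between 0.179 and 0.804 FPKM in mutants. *Lce3a* was listed at 0 in all 4 controls and in mutant 1, and at 0.364, 0.364 and 0.464 FPKM in the other mutants. An exact permutation test, with 35 possible splits, gave p = 0.0286 (two-sided, unadjusted) for *Lce3b*, *Lce3d* and *Lce3f*, the smallest value that the design allows. It gave 0.0571 for *Lce3e* and 0.143 for *Lce3a*. Among genes below the filter with any value above 0, 3.09% had mutants above all controls and 11.1% below. Without the filter, where 5.97% of 27586 genes were called higher and 17.1% lower, limma called *Lce3a*, *Lce3b*, *Lce3c*, *Lce3d* and *Lce3f* higher with adjusted p between 0.00572 and 0.0494.

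Summed over the 6 genes, *Lce3* was at 0.0984, 0.403, 1.76 and 0.285 FPKM in controls and at 3.84, 15.8, 9.45 and 9.02 FPKM in mutants. The lowest mutant was above the highest control. The group means were 0.636 ± 0.759 and 9.52 ± 4.89 FPKM (SD, n = 4 each). Mutant 2 was the highest and mutant 1 the lowest of the mutants, as for *Lce1*.

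The *Lce1* genes make up most of the late cornified envelope transcripts in these libraries. Their 14 FPKM values summed to 4.41, 45.0, 35.3 and 10.3 in controls and to 13.3, 95.9, 35.3 and 42.8 in mutants. The group means were 23.8 ± 19.5 and 46.8 ± 35.04 FPKM (SD, n = 4 each), and the groups overlapped. The spread within a group was wide and shared by all 14 genes. Control 1 was the lowest control and mutant 1 the lowest mutant for all 14, and mutant 2 was the highest mutant for 13. Controls 2 and 3, which carry K14-Cre, were above controls 1 and 4, which do not, for all 14 genes. With 2 controls of each kind this difference was not tested.

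None of the 12 tested *Lce1* genes was called, with log2 fold changes of 0.29 to 0.88 and adjusted p of 0.0607 to 0.725. Their groups overlapped in every case. Against only the controls that carry K14-Cre these fold changes were -0.60 (*Lce1m*) to 0.38 (*Lce1l*), with 6 of the 12 below 0 and none called (the lowest adjusted p was 0.446). *Lce1a1* had the highest mean of the subfamily in mutants and was at 0.603, 7.19, 5.22 and 1.57 FPKM in controls and 2.03, 13.7, 5.27 and 7.51 FPKM in mutants. Its log2 fold change was 0.88 with a 95% interval of -0.45 to 2.20, which holds both a fall and a rise. *Lce1m* ranged from 0.883 to 7.29 FPKM in controls and from 1.49 to 13.3 FPKM in mutants and had the smallest fold change, 0.29. *Lce1b* ranged from 0.271 to 4.74 and from 0.972 to 8.61 FPKM, and *Lce1a2* from 0.395 to 5.00 and from 0.973 to 10.2 FPKM. *Lce1c* ranged from 0.349 to 3.68 and from 1.16 to 9.56 FPKM, and *Lce1d* from 0.382 to 4.19 and from 2.003 to 9.22 FPKM. These 6 genes are the most abundant of the subfamily. Of the middle group, *Lce1f* ranged from 0.347 to 2.77 FPKM in controls and from 0.990 to 6.87 FPKM in mutants, *Lce1i* from 0.383 to 2.64 and from 0.574 to 5.59 FPKM, and *Lce1e* from 0.0398 to 2.183 and from 0.639 to 3.82 FPKM. The lowest tested genes were *Lce1g* (0.340 to 1.70 and 0.392 to 3.41 FPKM), *Lce1h* (0.201 to 1.24 and 0.387 to 4.11 FPKM) and *Lce1l* (0.129 to 1.25 and 0.972 to 3.71 FPKM). *Lce1l* was the only one with an unadjusted p under 0.05 (0.0271, log2 fold change 0.81, standard error 0.31, adjusted p = 0.0607). Without mutant 1, *Lce1l* and *Lce1h* were called higher (adjusted p = 0.0417 and 0.0435), as they were with quantile normalization (0.0131 and 0.0470). *Lce1l* was also called with median-of-ratios scaling (adjusted p = 0.0449).

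*Lce1j* and *Lce1k* fell below the filter. *Lce1j* was at 0, 0.524, 0.712 and 0.192 FPKM in controls and at 0.303, 2.27, 0.554 and 1.48 FPKM in mutants. *Lce1k* was at 0.0874, 0.611, 0.635 and 0.142 FPKM in controls and at 0.376, 1.59, 0.785 and 1.60 FPKM in mutants. The groups overlapped for both. *Lce6a*, which lies beside the *Lce1* genes next to *Lce1a1*, was at 0.622, 2.28, 1.65 and 1.21 FPKM in controls and at 0.755, 2.65, 2.35 and 1.75 FPKM in mutants. Its log2 fold change of 0.23 was not called (adjusted p = 0.518).

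The balance between the subfamilies separated the groups. *Lce3* held 2.183, 0.886, 4.75 and 2.70% of the summed *Lce1* and *Lce3* FPKM in controls and 22.5, 14.1, 21.1 and 17.4% in mutants. Mutant 1, with few *Lce1* transcripts, thus had a share like that of the other mutants. The means were 2.63 ± 1.61% and 18.8 ± 3.76% (SD, n = 4 each). These shares are a description and were not tested.

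**Figure D2:**
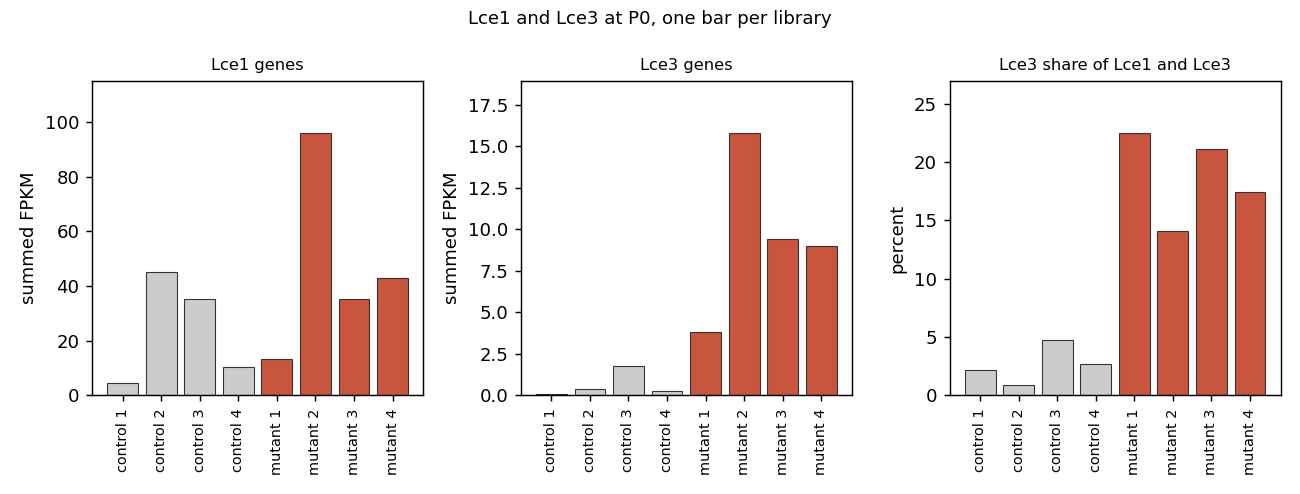
Summed FPKM of the 14 *Lce1* genes, summed FPKM of the 6 *Lce3* genes, and the percent of both that came from *Lce3*, with one bar for each P0 library (grey controls, red mutants). *Lce1* bars overlap between groups, *Lce3* bars are 1.76 FPKM or less in controls and 3.84 or more in mutants, and the *Lce3* share is at most 4.75% in controls and at least 14.1% in mutants.

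Among the fused S100 genes, *Rptn* rose and *Tchh*, its neighbour, fell. *Rptn* encodes repetin, a glutamine-rich envelope protein. It was at 3.61, 1.52, 7.09 and 4.57 FPKM in controls and at 43.6, 33.5, 21.4 and 30.3 FPKM in mutants. The lowest mutant was above the highest control, and the means of 4.20 ± 2.31 and 32.2 ± 9.18 FPKM (SD, n = 4 each) were 7.67-fold apart. On the log2 scale *Rptn* rose by 2.75, with a standard error of 0.33 and a 95% interval of 1.999 to 3.51 (limma, adjusted p = 0.000217). All 18 alternatives kept the call.

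*Tchh* encodes trichohyalin, which hardens the inner root sheath and medulla of the hair. It was at 4.27, 15.9, 11.2 and 23.2 FPKM in controls and at 3.64, 3.89, 3.76 and 3.46 FPKM in mutants. The mutants were close together and just under control 1, while the other controls were well above them. The means were 13.6 ± 7.97 and 3.69 ± 0.184 FPKM (SD, n = 4 each), and the log2 fold change was -1.44 with a standard error of 0.39 (limma, adjusted p = 0.0147). All 18 alternatives kept the call. Hair markers were also lower in mutants. Inner root sheath keratins summed over 7 genes, 6 of which reached 1 FPKM in 4 libraries and none of which was at 0 throughout, were at 81.5 to 225 FPKM in controls and 6.76 to 12.7 FPKM in mutants. All 6 tested were called lower, and control 1 had the lowest sum of the controls. Hair placode markers, of which 6 of 6 reached 1 FPKM in 4 libraries and none was at 0 throughout, summed to 151 to 187 FPKM in controls and 20.8 to 38.2 FPKM in mutants, and all 6 were called lower. Here control 1 had the highest sum of the controls. Of all tested genes 30.7% were called lower. Myeloid (5 of 5 tested), T cell (4 of 4) and fibroblast (2 of 3) markers were called lower as well, while 4 of 6 melanocyte markers were called higher. The part of any of these lists in the *Tchh* difference was not tested. In such bulk samples fewer cells of a type and less RNA per cell cannot be told apart.

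*Tchhl1*, a trichohyalin-like gene next to *Tchh*, was at 0.112, 0.962, 0.453 and 1.51 FPKM in controls and at 0.0354, 0.0302, 0.0117 and 0.0570 FPKM in mutants. *Crnn*, which encodes cornulin of the upper layers of squamous epithelia, was at 0.705, 3.16, 2.07 and 3.71 FPKM in controls and at 0.119, 0.339, 0.613 and 0.492 FPKM in mutants. Both lay below the filter, and all mutants were below all controls. Of the genes below the filter with any value above 0, 11.1% had all mutants below all controls, and of the tested genes 31.8% (11.7% above). The exact permutation test gave p = 0.0286 for each, two-sided and unadjusted. Without the filter limma called *Crnn* (adjusted p = 0.0279) but not *Tchhl1* (adjusted p = 0.0626).

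The filaggrin-type genes did not pass the test. *Flg*, whose product bundles keratin filaments and is then broken down into water-binding compounds, was at 82.7, 119, 196 and 353 FPKM in controls and at 146, 130, 80.7 and 172 FPKM in mutants. Its log2 fold change was -0.34 with a 95% interval of -1.27 to 0.59 (limma, adjusted p = 0.533), and without control 4 it was 0.03. *Flg2*, the filaggrin-2 gene, was at 3.21, 10.2, 14.003 and 28.3 FPKM in controls and at 3.08, 6.44, 4.10 and 3.45 FPKM in mutants. Control 1 lay among the mutants and the other 3 controls above them. The log2 fold change of *Flg2* was -1.23 with a standard error of 0.50 (limma, adjusted p = 0.0744). Without control 1 it was -1.73 and was called (adjusted p = 0.00556), and it was also called against only the controls with K14-Cre (adjusted p = 0.0125). *Hrnr*, which encodes the filaggrin-like protein hornerin, was at 2.13, 4.54, 8.39 and 14.5 FPKM in controls and at 13.2, 6.65, 5.78 and 6.49 FPKM in mutants. Its log2 fold change was 0.28 (adjusted p = 0.644), and the mutants lay inside the range of the controls.

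Controls differed in a common way across this family. Control 4 was the highest and control 1 the lowest control for 6 of the 7 fused S100 genes, and *Rptn* was the exception. Relative to *Flg*, *Rptn* was at 4.37, 1.27, 3.62 and 1.29% in controls and at 29.9, 25.8, 26.5 and 17.6% in mutants. Relative to *Flg*, *Flg2* was at 3.88, 8.50, 7.16 and 8.005% in controls and at 2.11, 4.97, 5.08 and 2.005% in mutants. The first ratio separated the groups and the second overlapped through control 1. Both are ratios of FPKM in 1 library and were not tested.

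**Figure D3:**
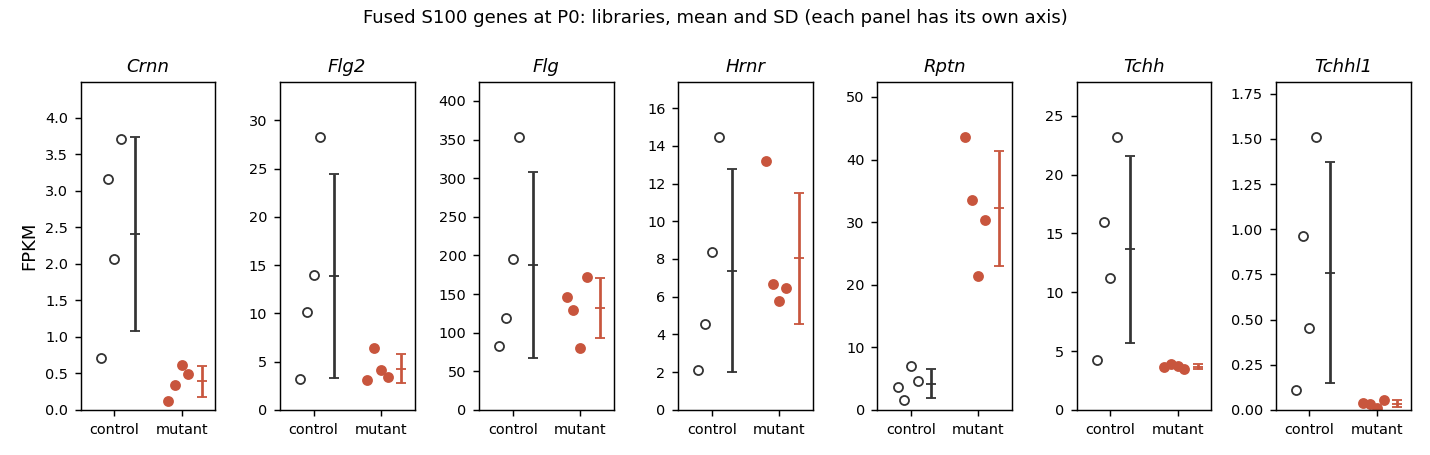
FPKM of the 7 fused S100 genes at P0 in their order on the chromosome, each on its own axis from 0, with open circles for the 4 controls, red circles for the 4 mutants, and bars for the mean and SD. *Rptn* is the gene with all mutants above all controls, *Crnn*, *Tchh* and *Tchhl1* have all mutants below, and *Flg2*, *Flg* and *Hrnr* overlap.

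None of the 4 tested single-copy genes was called, and none had an unadjusted p under 0.05. *Lor*, which encodes loricrin, the main protein of the envelope and with *Flg* the most abundant member, was at 77.1, 127, 211 and 320 FPKM in controls and at 190, 193, 147 and 238 FPKM in mutants. The mutants lay inside the range of the controls. The log2 fold change was 0.24 with a 95% interval of -0.62 to 1.09 (limma, adjusted p = 0.645), which leaves room for a change of either sign. *Ivl*, which encodes involucrin, an early scaffold of the envelope, was at 7.80, 14.8, 20.9 and 31.1 FPKM in controls and at 25.5, 23.9, 24.6 and 59.9 FPKM in mutants. Mutant 4 stood far above the others, and control 4 lay above the other 3 mutants. The log2 fold change of *Ivl* was 0.85 with a standard error of 0.41 (limma, adjusted p = 0.124).

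Set against *Lor* in the same library, *Ivl* was at 10.1, 11.7, 9.91 and 9.72% in controls and at 13.4, 12.4, 16.7 and 25.2% in mutants. The groups of this ratio did not overlap, although those of *Ivl* itself did. *Crct1* was at 3.38, 19.4, 16.1 and 16.3 FPKM in controls and at 11.2, 23.9, 12.9 and 16.2 FPKM in mutants, and control 1 stood below all other libraries. Its log2 fold change was 0.36 (adjusted p = 0.555), and without control 1 it was -0.15. *Kprp*, a keratinocyte proline-rich protein gene that lies among the *Lce1* genes, was at 0.0747, 1.47, 1.49 and 0.554 FPKM in controls and at 0.871, 5.06, 1.45 and 1.66 FPKM in mutants. Like the *Lce1* genes it was lowest in control 1 and mutant 1 and highest in mutant 2 (log2 fold change 0.71, adjusted p = 0.165). *Lelp1* reached at most 0.0951 FPKM. *Smcp*, known for its product in sperm mitochondrial capsules, reached at most 0.1202 FPKM.

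**Figure D4:**
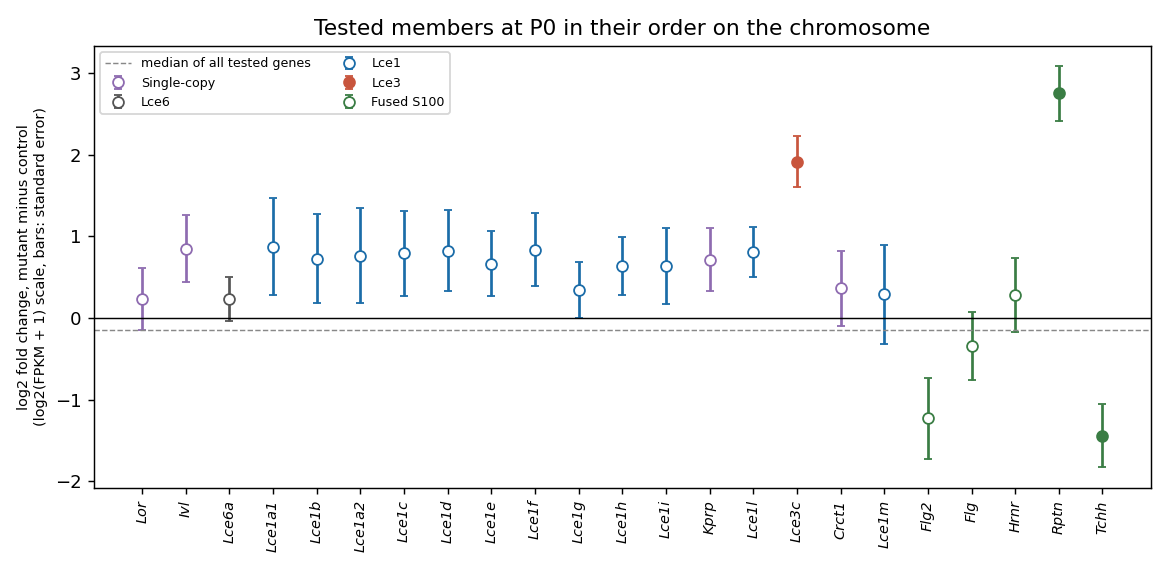
log2 fold change of the 23 tested members at P0, mutant minus control on the log2(FPKM + 1) scale with bars for 1 standard error, in their order on the chromosome and coloured by family. Filled points (*Lce3c*, *Rptn* and *Tchh*) passed the adjusted p threshold, and the dashed line at -0.15 is the median of all tested genes.

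Partners of these proteins were taken from lists, whose counts are read against the 11.7% of all tested genes called higher and 30.7% called lower. Of 17 genes for envelope enzymes, plakins and keratins 16 were tested at P0, and 8 were higher and 2 lower in mutants. *Tgm1*, the main transglutaminase of the envelope, went from 20.1 ± 5.12 to 73.0 ± 8.25 FPKM, a change of 1.83 on the log2 scale (limma, adjusted p = 4.43e-05, here and below the mean ± SD of 4 libraries). *Cst6*, a protease inhibitor of the upper epidermis, went from 7.94 ± 0.861 to 19.0 ± 4.42 FPKM (1.1397, adjusted p = 0.000350), and *Tgm5*, another transglutaminase, from 20.2 ± 2.11 to 7.60 ± 1.36 FPKM (-1.31, adjusted p = 5.44e-05). The 2 transglutaminases named thus moved in opposite directions. Of 16 genes that process filaggrin 14 were tested, 7 higher and 2 lower. *Spink5*, an inhibitor of skin kallikreins, went from 12.6 ± 6.89 to 85.6 ± 28.8 FPKM (2.75, adjusted p = 0.000236), and *Asprv1*, a profilaggrin protease, from 203 ± 38.1 to 431 ± 60.2 FPKM (1.09, adjusted p = 0.000442). *Padi3*, a deiminase of filaggrin and trichohyalin, fell from 2.39 ± 1.23 to 0.125 ± 0.11003 FPKM (-1.52, adjusted p = 0.000945).

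Of the neighbouring *Sprr* family, 10 of 16 genes were tested and called higher in mutants, where 7 of the 10 reached 1 FPKM in all 4 mutants but not in all 4 controls, and 4 of these reached 1 FPKM in no control. Among the 10 were *Sprr1a*, from 50.8 ± 9.72 to 376 ± 117 FPKM (2.84 on the log2 scale, adjusted p = 1.58e-05), *Sprr2d*, from 1.96 ± 1.46 to 55.3 ± 9.81 FPKM (4.35, adjusted p = 8.43e-06), and *Sprr2i*, from 0.0748 ± 0.1196 to 4.42 ± 0.750 FPKM (2.33, adjusted p = 3.98e-06). Of 13 *S100a* genes 11 were tested, 7 higher and 2 lower. *S100a8* and *S100a9*, which form calprotectin, went from 1.06 ± 0.498 to 66.1 ± 21.0 FPKM (5.01, adjusted p = 1.67e-06) and from 3.12 ± 2.33 to 132 ± 24.6 FPKM (5.18, adjusted p = 1.34e-05), and *S100a10*, a partner of annexin A2, from 526 ± 87.1 to 1150 ± 161 FPKM (1.13, adjusted p = 0.000247). Of 29 regulators of the complex, all tested, 6 were higher and 12 lower. *Zfp750*, a factor of late differentiation, went from 49.6 ± 4.12 to 90.6 ± 7.75 FPKM (0.85, adjusted p = 8.98e-05), and *Fosl1*, an AP-1 subunit, from 1.96 ± 0.969 to 17.5 ± 8.73 FPKM (2.56, adjusted p = 0.000532). *Prdm1*, a repressor that acts in granular cells, fell from 2.95 ± 0.407 to 0.929 ± 0.330 FPKM (-1.04, adjusted p = 0.000378). Granular markers, of which 8 of 8 were found and none was at 0 throughout, summed to 2794 to 3451 FPKM in controls and 4680 to 6874 FPKM in mutants. Of these 8, 6 were called higher and the other 2 were not called. Other sums were also higher in all mutants. Spinous markers summed to 14580 to 19734 FPKM in controls and 21126 to 30178 FPKM in mutants, with 2 of 5 called higher. Basal markers summed to 17792.5 to 20787.5 and 21877.5 to 27473.3 FPKM, with 2 of 6 called higher and 1 lower. Melanocyte markers summed to 207 to 275 and 299 to 651 FPKM. Hair, myeloid, T cell and fibroblast sums were lower in all mutants. Periderm markers (*Krt4*, *Krt8*, *Krt18*, *Krt19*, *Krt6a* and *Krt17*) summed to 1852 to 2595 FPKM in controls and 6006 to 6853 FPKM in mutants. Of these 6, 5 reached 1 FPKM in 4 libraries and none was at 0 throughout, with 2 called higher and 3 lower. The paper reports *Krt6a* among the genes most induced in mutants at P0 and takes K6A as a marker of activated keratinocytes. The sum is therefore not read as a measure of periderm. The part of any of these lists in the *Rptn* and *Lce3* differences was not tested.

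At E13.5, when the epidermis has barely begun to stratify, most members were listed at 0. This held in all 8 libraries for 24 of 34 members, including all 14 *Lce1* and all 6 *Lce3* genes, *Rptn* and *Tchhl1*. Since 49 tested genes of this stage were at 0 in 1 library and above 20 FPKM in another, a listed 0 is not read as absence. Only *Lor* and *Tchh* passed the filter. Of these none was called higher and *Tchh* was called lower in libraries titled mutant, against 25.2% called of 12866 genes (11.8% higher and 13.4% lower by title). *Lor* itself had an unadjusted p of 0.130.

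*Lor* was at 4.45, 4.30, 2.93 and 2.85 FPKM in the libraries titled control and at 3.96, 4.52, 4.06 and 4.67 FPKM in those titled mutant. The libraries titled control 3 and 4 were the lowest. They carry the number 67 in their column names, and the other 6 libraries carry another number. The log2 fold change was 0.21 by title (limma, adjusted p = 0.252), -0.21 by column name, and -0.02 without the libraries numbered 67.

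*Tchh* was at 2.96, 3.03, 2.91 and 3.18 FPKM in the libraries titled control and at 2.37, 2.39, 2.22 and 2.41 FPKM in those titled mutant. The groups did not overlap, which held for 28.1% of tested genes. The log2 fold change was -0.26 with a standard error of 0.06 by title (limma, adjusted p = 0.0126), and 0.26 by column name. Without the libraries numbered 67, which leaves 2 libraries titled control, it was -0.25 and no longer called (adjusted p = 0.0880). The inner root sheath keratins, of which 1 of 7 reached 1 FPKM in 4 libraries and *Krt25* and *Krt26* were at 0 throughout, summed to 1.10 to 2.30 FPKM in libraries titled control and 0.217 to 0.765 FPKM in those titled mutant. Hair placode markers went the other way by title and summed to 45.4 to 54.3 FPKM in libraries titled control. In those titled mutant they summed to 59.7 to 84.7 FPKM. Of these 6 markers 3 reached 1 FPKM in 4 libraries, with 1 called higher and 2 not called. The part of either list in the *Tchh* difference at E13.5 was not tested.

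Low values separated the groups for 3 further members. *Lce6a* was at 0.143, 0.0770, 1.201 and 1.34 FPKM in the libraries titled control and listed at 0 in the 4 titled mutant. The values above 1 were those of the libraries numbered 67. *Crct1* was at 0.676, 0.552, 0.583 and 0.450 FPKM in libraries titled control and at 0.351, 0.288, 0.0455 and 0.226 FPKM in those titled mutant, lower in all by title. *Hrnr* was at 0.00597 to 0.0385 FPKM in libraries titled control and 0.0421 to 0.0730 FPKM in those titled mutant, higher in all by title. By column name these directions turn round. Among genes below the filter with any value above 0, 3.22% had all libraries titled mutant higher and 2.78% lower. The exact permutation test gave p = 0.0286 for each of the 3, two-sided and unadjusted. Without the filter limma called *Crct1* lower (adjusted p = 0.0400) and *Hrnr* higher (adjusted p = 0.0494), with 5.37% of 26731 genes called lower and 4.32% higher, but not *Lce6a* (adjusted p = 0.181). *Ivl* ranged from 0.511 to 0.933 FPKM in libraries titled control and from 0.270 to 0.845 FPKM in those titled mutant. *Crnn* reached at most 0.173, *Lelp1* 0.0357, *Flg* 0.0282 and *Flg2* 0.00333 FPKM.

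**Figure D5:**
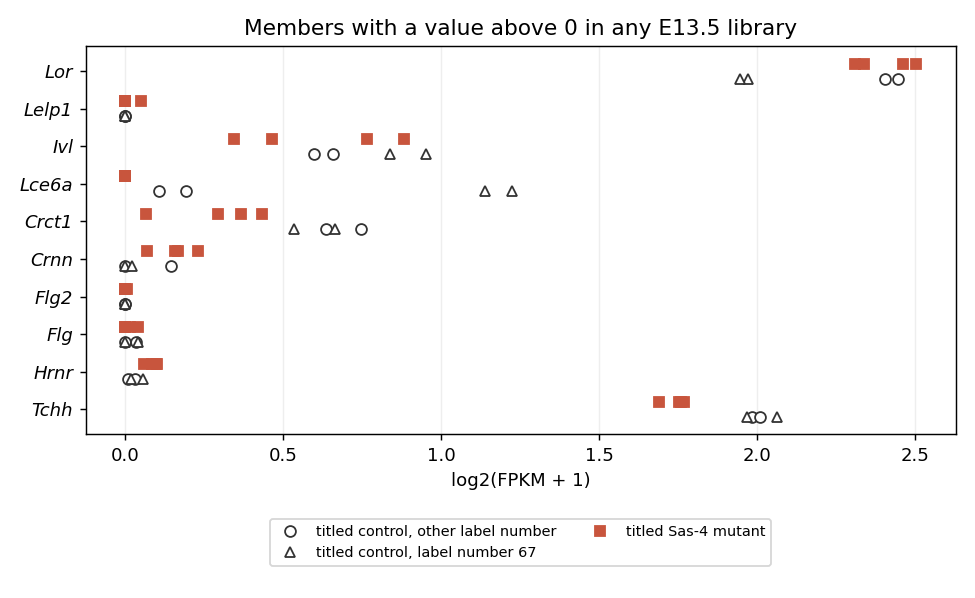
The 10 members with a value above 0 in any E13.5 library, on the log2(FPKM + 1) axis. Red squares are the libraries titled mutant, triangles those titled control with the number 67 and open circles the other libraries titled control. The triangles stand apart for *Lor* (2.93 and 2.85 FPKM) and *Lce6a* (1.201 and 1.34 FPKM), and the groups by title are separate for *Tchh*, *Crct1*, *Lce6a* and *Hrnr*.

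The partner lists at E13.5 are given by title. Their counts are read against the 11.8% of all tested genes of this stage called higher and 13.4% called lower by title. Of the envelope partners 11 were tested, with 2 higher and 1 lower. *Krt1* and *Krt10*, the first keratins of differentiating keratinocytes, went from 19.9 ± 3.43 to 80.6 ± 36.5 FPKM (1.85 on the log2 scale, adjusted p = 0.00334 by limma) and from 94.2 ± 19.9 to 184 ± 66.0 FPKM (0.90, adjusted p = 0.0307), and *Scel*, which encodes the envelope precursor sciellin, from 12.2 ± 1.28 to 7.82 ± 1.70 FPKM (-0.60, adjusted p = 0.0114). Of the filaggrin-processing genes 10 were tested, 1 higher and 6 lower. *St14*, which encodes the protease matriptase, went from 51.1 ± 1.65 to 29.8 ± 1.33 FPKM (-0.76, adjusted p = 5.56e-06), *Padi3* from 2.21 ± 0.374 to 4.54 ± 0.328 FPKM (0.79, adjusted p = 0.000582) and *Blmh*, which encodes a protease that degrades deiminated filaggrin, from 87.2 ± 4.86 to 70.5 ± 1.77 FPKM (-0.30, adjusted p = 0.00157). Of the regulators 26 were tested, 9 higher and 2 lower. *Jun*, an AP-1 subunit, went from 23.2 ± 1.07 to 9.86 ± 1.43 FPKM (-1.17, adjusted p = 5.19e-05), *Trp63*, the master factor of stratified epithelia, from 123 ± 2.79 to 151 ± 3.01 FPKM (0.30, adjusted p = 0.000212), and *Gata3*, a factor of epidermal and hair differentiation, from 24.9 ± 0.670 to 39.2 ± 3.69 FPKM (0.63, adjusted p = 0.000243). By column name each of these directions turns round. Of the *Sprr* genes 3 were tested, with adjusted p of 0.240 for *Sprr1a*, 0.298 for *Sprr1b* and 0.599 for *Sprr2a3*. Of the *S100a* genes 8 were tested and 3 were lower by title, *S100a6*, *S100a10* and *S100a11* (log2 fold changes -1.60, -0.72 and -0.40). The difference between the stages was not tested, and the tables of the stages were made separately.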

How the data were processed

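RNA-Seq of 16 libraries was analysed, 4 per group at P0 and at E13.5. The authors deposited FPKM values per gene, made with the QuickNGS pipeline, in 1 table per stage. According to the submitters' processing notes the build was mm10, quality was checked with FastQC 0.11.5, and base calls were converted by bcl2fastq, versions 2.17.1.14 and 2.18.0.12. The aligner and whether reads were counted by strand are not given in the sources used here. *Hrnr*, *Rptn*, *Tchh*, *Flg* and *Lelp1* overlap other genes, each at no more than 0.543 FPKM.

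Groups came from sample titles and genotype tags. Genes at 1 FPKM or more in 4 or more of the 8 libraries of a stage entered limma 3.58.1 in R 4.3.3 on the log2(FPKM + 1) scale (mean trend, two-sided, Benjamini-Hochberg over all tested genes of the stage, adjusted p threshold 0.05). Fold changes on this scale understate those of low genes. Single members below the filter had an exact permutation test over 35 splits. The script was tested on simulated data. No source says which libraries came from separate litters, so p-values measure the spread between these libraries. Read numbers are unknown, and depth was compared through values under 0.2 FPKM. Every member was accounted for, and up to 3 genes with the smallest adjusted p were named from each comparison list. Members and lists were chosen with earlier results of these data known. Figures were drawn with matplotlib 3.10.9 and tables computed with numpy 2.4.6, pandas 2.3.3 and scipy 1.17.1 under Python 3.11.15.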

Additional observations from a re-analysis of the deposited data

Results flagged for a closer look

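Values of the 58 groups of 4 libraries whose highest member value reached 1 FPKM were screened for a library far from the others, which chance alone gives in about 1 in 20 groups. At P0 *Ivl* was at 59.9 FPKM in mutant 4, while the other mutants lay between 23.9 and 25.5 FPKM. *Hrnr* was at 13.2 FPKM in mutant 1 at P0, while the other mutants lay between 5.78 and 6.65 FPKM.

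*Tchh* was lower in mutants at P0, at 0.270 times the mean of the controls, and at E13.5 it was at 0.778 times by title. By column name the direction at E13.5 is the opposite of that at P0, in every library. This difference between the stages was not tested.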

How the results depend on the processing

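The calls of *Rptn*, *Lce3c* and *Tchh* at P0 were kept under every alternative that tested them. The number of members called higher at P0 (2) became 1 with a mean FPKM of at least 5, 6 with no filter, 4 with quantile normalization, 3 with median-of-ratios scaling and 2 to 4 when each replicate was left out, with 4 without mutant 1. The number called lower (1) became 2 with no filter, with only the controls that carry K14-Cre, with sex read from Y-linked genes as a term, and without both control 1 and mutant 2 (added after the data were seen), and 1 to 2 when each replicate was left out. *Flg2* was the second gene in all of these except the fit with no filter, where it was *Crnn*. Y-linked genes were read in 1 control and 3 mutants at P0, so sex was unbalanced between these groups. At E13.5 they were read in 1 library of each group.

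Deviations of same-numbered libraries had correlations of -0.0064, 0.11, -0.024 and -0.014 at P0 and of 0.0016, -0.014, 0.068 and 0.025 at E13.5. The best match of a control had its own number for control 2 at P0 and for controls 3 and 4 by title at E13.5. These values show no clear pairing by number and cannot exclude one. With the number as a replicate block 13 of the 23 tested members were called higher at P0 and 1 lower. The 13 were *Rptn*, *Lce3c*, *Ivl*, *Kprp* and 9 *Lce1* genes. Over all genes 1424 (10.9%) were higher and 3706 (28.4%) lower in this fit. Not every library correlated best with its own number.

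Over all genes at P0, 1520 were higher and 3995 lower. These became 2459 and 2520 with median-of-ratios scaling, 2320 and 2480 with quantile normalization, 789 and 1639 with only the K14-Cre controls, and 993 and 2521 without control 1 and mutant 2. A mean FPKM of at least 5 gave 2478 lower, and leaving out each replicate 1196 to 1844 higher and 2705 to 4534 lower.

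At E13.5 by column name 1 member was higher and 0 lower. No filter gave 1 higher and 2 lower, and both a mean FPKM of at least 5 and leaving out the number 67 gave 0 lower. Over all genes, 1516 were higher and 1727 lower by title. Without the number 67 this was 518 and 641, and leaving out each replicate gave 997 to 1543 and 1099 to 1799, with 999 and 1099 without control 3, 1127 lower without control 4 and 997 higher without mutant 1. By column name *Lor* was at -0.21 and *Tchh* at 0.26 (log2), and *Lor* was at -0.022 without the number 67.

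Other log2 fold changes that changed sign, none of them called, were as follows. With only the K14-Cre controls *Crct1* was at -0.19, *Lce1a1* at -0.031, *Lce1a2* at -0.062, *Lce1b* at -0.0076, *Lce1g* at -0.029, *Lce1i* at -0.022, *Lce1m* at -0.60 and *Lce6a* at -0.089. Without control 1 and mutant 2 *Crct1* was at -0.35, *Hrnr* at -0.053, *Lce1b* at -0.0053, *Lce1g* at -0.12, *Lce1m* at -0.58, *Lce6a* at -0.082 and *Lor* at -0.12. With sex as a term *Hrnr* was at -0.16. Leaving out replicates, these 2 together included, gave *Crct1* -0.35 to 0.59, *Flg* -0.67 to 0.031, *Lce1b* -0.0053 to 1.16, *Lce1g* -0.12 to 0.60, *Lce6a* -0.082 to 0.45, *Hrnr* -0.11 to 0.66, *Lce1m* -0.58 to 0.66 and *Lor* -0.12 to 0.57. The cause of these changes was not tested. Low levels, which left 5 of 6 *Lce3* genes below the filter at P0, limit what the test can show.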
